A study of Mus musculus with 30 samples.

Results

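In female mice that had been through chronic stress, the ribosome-bound RNA of D1 medium spiny neurons was compared between animals called Susceptible and animals called Resilient. The 10 libraries, 5 of each kind, were chosen by their labels alone and are 10 of the 30 in the series. All mice were D1-Cre-RT females, in which Cre under the D1 receptor promoter turns on an HA-tagged ribosomal protein, so that an anti-HA antibody pulls down polyribosomes from the Cre-expressing cells. Susceptible and Resilient mice both underwent chronic witness defeat stress (CWDS), in which a female watches another mouse being attacked, and were then grouped by social interaction (SI) scores. The remaining libraries are 5 of unstressed D1-Cre-RT Controls, used here to place the levels, and 15 of D2 neurons from A2A-Cre-RT females in the same 3 groups, of which the Susceptible and Resilient ones serve to test whether a difference was particular to D1. The nucleus accumbens (NAc) was punched 24 h after the SI test, and each library pools tissue from 4 mice with similar SI ratios. A p-value therefore measures the spread between pools of mice, not between single animals.

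The NAc is the ventral part of the striatum, a region known for its part in reward and motivation. Most of its neurons are medium spiny neurons, which use GABA and fall into a class with D1 dopamine receptors, dynorphin and substance P and a class with D2 receptors, adenosine A2A receptors and enkephalin. Polyribosome pull-down reads which messages are bound to ribosomes in a cell class, and it always carries some RNA from neighbouring cells.

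The D1 markers fitted the label. Drd1, the D1 dopamine receptor, was 494 ± 107 CPM (read counts scaled to TMM library sizes, mean ± SD, n = 5) in Susceptible and 501 ± 54.9 CPM in Resilient D1 libraries, against 58.4 ± 9.73 and 139 ± 154 CPM in D2 libraries of the same groups. The library labelled D2 Resilient replicate 5 had markers of both classes. It had 414 CPM of Drd1, within the D1 range, and 205 CPM of Drd2. The other 4 had 56.4 to 95.2 CPM of Drd1 and 415 to 498 CPM of Drd2. The D2 class markers Adora2a and Penk stood at 491 and 4038 CPM in replicate 5. Those values were above every D1 Susceptible and Resilient library (at most 314 and 2352 CPM). They were below the other 4, at 1030 to 1197 and 7888 to 10665 CPM. Without replicate 5, Drd1 in D2 Resilient libraries was 70.7 ± 16.9 CPM (n = 4). Genes of the D2 class were also present: Penk, the enkephalin precursor, stood at 2237, 915, 1322, 2137 and 1902 CPM in Susceptible replicates 1 to 5 and 1080.4, 1244, 1524, 1112 and 2352 CPM in Resilient replicates 1 to 5. Susceptible replicates 1, 4 and 5 and Resilient replicate 5 were the high ones, and the groups overlapped (log2 difference 0.22 (SE 0.234, edgeR unadjusted p 0.357, adjusted p 1)). Summed over 9 D2 identity genes, the same 4 libraries lay at 2770 to 3154 CPM and the other 6 at 1415 to 2169 CPM.

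One library stood apart. Susceptible replicate 1 had 28996168 gene counts, against 45981977 to 54005102 in the other 9, and ribosomal RNA features held 68.1% of them. Gm42418 alone, an annotation over the ribosomal RNA repeat, held 54.9%. Reads outside genes made up 41.2% of that library, and 9254785 counts remained outside the ribosomal RNA features. In Susceptible replicate 5 these features held 6.28%, and in the other 8 libraries 0.649% to 0.867%. The share was 15.3% ± 29.6 (SD, n = 5) in Susceptible and 0.740% ± 0.0967 in Resilient libraries, a difference that did not pass a two-sided exact permutation test (p 0.127, where 0.00794 is the smallest possible). Without Susceptible replicate 1 the Susceptible mean was 2.16% ± 2.75 (n = 4, exact permutation p 0.127). Of 79 genes checked, 75 kept their direction without that library, and the other 4 (Drd1, Rpl22, Fos and Fosb) changed sign close to 0. For the genes named by smallest p this was fixed in advance, since their rule asked for the same direction without that library. No gene passed an adjusted p of 0.05 in either fit. The count therefore does not measure how far the results rest on that library.

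Of 19368 genes tested, 0 passed an adjusted p of 0.05 by edgeR's quasi-likelihood test, and 675 (3.49%) had an unadjusted p under 0.05. Of these, 427 (2.2%) were higher in Susceptible and 248 (1.28%) lower. Without Susceptible replicate 1, 0 of 19853 genes passed and 374 (1.88%) had an unadjusted p under 0.05, 193 (0.972%) higher and 181 (0.912%) lower. All 5 Susceptible libraries lay above all 5 Resilient libraries for 73 genes (0.377%) and below them for 144 (0.743%), and without Susceptible replicate 1 the counts were 128 (0.661%) and 196 (1.01%). Other tools called a few genes. DESeq2 called 8 of 19330 (0.0414%), of which Abcb1a, Adgrl4, Abcc9, Kcnj8, Gm42418, CT010467.1 and Gm14308 were higher and Slc30a1 lower. Voom with quality weights (limma), which gives less weight to libraries that fit poorly, had an unadjusted p under 0.05 for 660 higher and 886 lower genes and called 14 (0.0723%), 10 of them lower, with Atp5k, Ndufa1, Ndufa3, Ndufb8, Rps28, Rps29 and Vamp2 among these. EdgeR without Susceptible replicate 3 called 9 of 19851 (0.0453%), among them Abcb1a, Adgrl4, Lars2 and Gm42418. Since no gene passed the main test, directions below are those of measured values, and gene groups are described by counts at an unadjusted p under 0.05.

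Most genes of the respiratory chain had lower levels in Susceptible than in Resilient libraries, with none past the adjusted threshold in edgeR. Complex I takes electrons from NADH and is built from subunits encoded mostly in the nucleus. Of its 35 tested nuclear genes, 33 had a negative log2 difference, 11 were lower at an unadjusted p under 0.05 and 0 higher, with a median of -0.14 against -0.01 over all genes tested. At that threshold 1.28% of all genes were lower and 2.2% higher. Of 39 tested genes of complexes II to V, 37 were negative, 9 lower and 0 higher (median -0.12). Without Susceptible replicate 1 the medians were -0.10 and -0.10, with 6 and 7 genes lower, where 0.912% of all genes were. By voom 18 complex I genes were lower and 1 higher, where 886 of all 19368 genes were lower and 660 higher. These lists and those below were written with results of these data known, so their direction is a description.

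The promoters of 5 of these short housekeeping genes are shown because they carry, or lack, the motifs that nuclear genes for mitochondria are known for. Sequences are from RefSeq on GRCm38.p6, 100 bases before the first annotated start and 20 after it, 5′ to 3′ on the gene's strand, with capitals at a match to the NRF1 motif or GGGCGG (SP1, read as CCGCCC on the other strand).
Atp5k, chr5:108434429-108434548, minus strand: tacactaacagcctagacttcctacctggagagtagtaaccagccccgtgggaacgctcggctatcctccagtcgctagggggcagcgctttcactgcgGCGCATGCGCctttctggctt
Ndufb8, chr19:44555423-44555542, minus strand: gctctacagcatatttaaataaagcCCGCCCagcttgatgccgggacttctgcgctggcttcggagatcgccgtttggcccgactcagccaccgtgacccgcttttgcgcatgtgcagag
Ndufa3, chr7:3617273-3617392, plus strand: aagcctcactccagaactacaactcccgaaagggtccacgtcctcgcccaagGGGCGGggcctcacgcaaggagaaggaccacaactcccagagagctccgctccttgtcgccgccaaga
Cox7b, chrX:106015600-106015719, plus strand: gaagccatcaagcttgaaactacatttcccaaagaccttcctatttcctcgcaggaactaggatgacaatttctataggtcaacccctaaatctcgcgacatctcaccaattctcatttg
Rps28, chr17:33824543-33824662, minus strand: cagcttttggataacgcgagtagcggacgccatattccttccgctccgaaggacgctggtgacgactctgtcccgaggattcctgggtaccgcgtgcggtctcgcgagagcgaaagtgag

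In windows of 300 bases (250 before and 50 after each start), on both strands, the NRF1 motif was found in 24.2% of 33 complex I windows and 28.1% of 32 windows of complexes II to V, against 5.61% of all 25112 windows. The ETS motif CCGGAAG was in 37.5% of the windows of complexes II to V and 37.5% of the 64 ribosomal protein windows (10.6% of all), but in 9.09% of complex I windows. The YY1 motif AAGATGGC was in 21.2% of complex I windows (2.92% of all), and SP1's GGGCGG in 62.5% of ribosomal protein windows, 42.4% of complex I windows and 31.2% of those of complexes II to V (42.1% of all). Each motif was counted on its own, and SP1 and ETS matches can share end bases. Past the end of the stretches shown, Ndufb8 and Ndufa3 had a YY1 match and Atp5k an ETS match. Windows were found for 31 of 35 complex I genes, 29 of 39 genes of complexes II to V and 55 of 75 ribosomal protein genes. A match is a description of letters, and none of the promoters shown was measured here.

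Atp5k (ENSMUSG00000050856, chromosome 5, 108433244 to 108434448), a small subunit of ATP synthase, had 54.9, 51.0, 44.4, 54.7 and 80.0 CPM in Susceptible replicates 1 to 5 and 81.8, 91.6, 83.3, 78.5 and 87.7 CPM in Resilient replicates 1 to 5. Susceptible replicate 5 alone reached the Resilient range. The log2 difference was -0.57 (SE 0.164, edgeR unadjusted p 0.00164, adjusted p 0.689), and -0.56 without Susceptible replicate 1 (edgeR unadjusted p 0.00419, adjusted p 1). Control libraries, at 44.9 to 60.4 CPM, lay with the Susceptible ones: against them Atp5k differed by 0.13 in Susceptible and 0.70 in Resilient. Those comparisons share the Control libraries.

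Ndufa1 (ENSMUSG00000016427, chromosome X, 37187588 to 37191163), an accessory subunit of complex I, had 58.4, 63.2, 62.1, 76.0 and 76.0 CPM in Susceptible and 86.1, 92.9, 77.4, 88.4 and 104 CPM in Resilient libraries. The groups did not overlap, and the log2 difference was -0.42 (SE 0.118, edgeR unadjusted p 0.00129, adjusted p 0.671) (-0.38 without Susceptible replicate 1). Ndufb8 (ENSMUSG00000025204, chromosome 19, 44548572 to 44555440), another accessory subunit, had 48.7, 46.2, 45.9, 54.8 and 47.3 CPM in Susceptible and 57.7, 65.6, 59.3, 67.6 and 64.0 CPM in Resilient libraries, again without overlap. Its log2 difference was -0.37 (SE 0.113, edgeR unadjusted p 0.00257, adjusted p 0.844), and -0.37 without that library. The groups did not overlap for 7 complex I genes: 6 (Ndufa1, Ndufb8, Ndufa3, Ndufb3, Ndufa4 and Ndufb11) were lower in Susceptible and 1, Ndufb2, was higher (log2 difference 0.28, edgeR adjusted p 1). In complexes II to V, 3 genes did not overlap, each lower in Susceptible. The counts were the same without Susceptible replicate 1. Over all genes tested, 0.743% were lower without overlap and 0.377% higher, or 1.01% and 0.661% without that library.

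Among the cytochrome oxidase subunits, Cox7b had 91.6, 127.67, 119.5, 113.2 and 125.8 CPM in Susceptible and 137.9, 134.3, 140.6, 127.92 and 169.05 CPM in Resilient libraries, with no overlap (log2 difference -0.29, edgeR adjusted p 0.856). Cox5b differed by -0.25 (edgeR adjusted p 0.885). These were -0.23 and -0.22 with Susceptible replicate 1 left out. Slirp (ENSMUSG00000021040, chromosome 12, 87443896 to 87452206), which binds and stabilises mitochondrial messages, had 18.5, 28.8, 28.7, 31.1 and 29.8 CPM in Susceptible and 35.2, 35.8, 38.6, 33.9 and 44.3 CPM in Resilient libraries. Its log2 difference was -0.45 (SE 0.121, edgeR unadjusted p 0.000883, adjusted p 0.671), moving to -0.34 without Susceptible replicate 1, the lowest library. The 13 messages encoded in mitochondrial DNA did not share this direction: their median was 0.22, 2 were negative and 0 had an unadjusted p under 0.05. Without Susceptible replicate 1 their median was 0.12, again with 2 negative and 0 at that threshold.

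Most ribosomal protein genes also had lower levels in Susceptible libraries, with none past the adjusted threshold in edgeR. They encode the structural proteins of the cytosolic ribosome. Of 75 tested, 71 had a negative log2 difference, 20 were lower at an unadjusted p under 0.05 and 0 higher (median -0.16). At that threshold 1.28% of all genes were lower and 2.2% higher. Without Susceptible replicate 1, 69 were negative and 13 lower (0.912% of all genes), with the median still at -0.16. Rps29 (ENSMUSG00000034892, chromosome 12, 69157722 to 69159186) had 55.0, 39.8, 40.2, 54.3 and 69.1 CPM in Susceptible and 71.3, 79.9, 71.5, 69.9 and 76.2 CPM in Resilient libraries, with no overlap. Its log2 difference was -0.51 (SE 0.163, edgeR unadjusted p 0.00354, adjusted p 0.856), and -0.54 without Susceptible replicate 1. Controls lay at 35.2 to 50.4 CPM, and Resilient libraries differed from them by 0.82. Rps28 and Rpl38 differed by -0.43 and -0.42 (edgeR adjusted p 0.856 for both), or -0.46 and -0.37 without it. Many ribosomal protein genes have near-identical processed pseudogenes, and reads may be split between them: the pseudogene Rpl21-ps8 went the other way, at 6.90, 19.3, 21.1, 14.1 and 8.53 CPM in Susceptible and 5.77, 6.56, 9.55, 5.90 and 16.6 CPM in Resilient libraries (log2 difference 0.67, edgeR adjusted p 1). Of 75 mitochondrial ribosomal protein genes, 65 were negative, 6 lower and 1 higher (median -0.08), and without Susceptible replicate 1 the counts were 1 lower and 0 higher. Translation factors (56 tested, median -0.06) and proteasome subunits (38 tested, median -0.06) had 0 lower at that threshold. Without Susceptible replicate 1 their medians were -0.03 and -0.02, again with 0 lower.

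**Figure D1:**
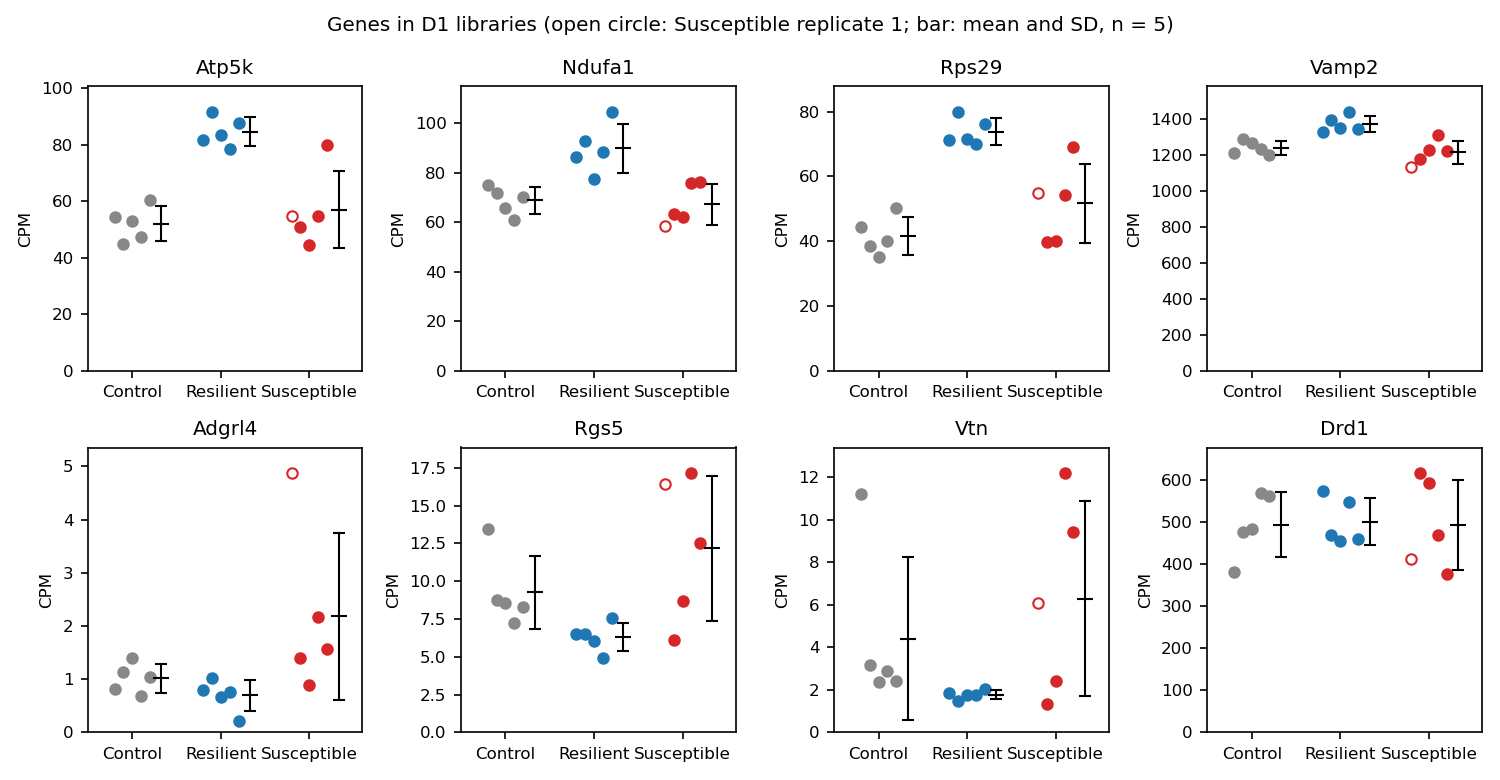
Level in CPM (vertical axes, from 0) of 8 genes in each D1 library of the Control, Resilient and Susceptible groups; the open circle is Susceptible replicate 1, and bars give the mean and SD of 5 libraries. Resilient libraries lie above all Susceptible libraries for Ndufa1, Rps29 and Vamp2 and above all but replicate 5 for Atp5k, below most of them for Adgrl4, Rgs5 and Vtn, and among them for Drd1.

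Summed over the 35 complex I genes, Susceptible replicates 1 to 5 held 3712, 4239, 4092, 4580.3 and 4144 CPM and Resilient replicates 1 to 5 4371, 4483, 4456, 4519 and 5219 CPM, against 4257 to 4430 CPM in Controls. Over the 75 ribosomal protein genes the sums were 8828, 9038, 9434, 10319 and 8903 CPM in Susceptible and 9455, 9927, 10202, 10114 and 11694 CPM in Resilient libraries. Resilient replicate 5 was the highest in both, and Susceptible replicate 1 the lowest. Without Resilient replicate 5 the counts of lower genes were 6 in complex I, 3 in complexes II to V and 6 among ribosomal proteins. The medians were -0.08, -0.08 and -0.08, and 153 of all 19814 genes were then lower. Leaving out any other of these 10 libraries left each median further from 0 than leaving out Resilient replicate 5 did.

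Side by side with Controls, whose libraries both comparisons share, the 3 lists had medians of -0.04 (complex I), -0.02 (complexes II to V) and -0.03 (ribosomal proteins) in Susceptible and 0.12, 0.10 and 0.12 in Resilient. At an unadjusted p under 0.05, Resilient libraries had 9 complex I genes higher and 1 lower, 5 higher and 0 lower in complexes II to V, and 17 higher and 1 lower among ribosomal proteins, where 1.08% of all genes were higher and 1.51% lower. In Susceptible libraries 0, 0 and 1 were higher and 0, 0 and 1 lower, where the shares over all genes were 1.41% and 0.991%.

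In D2 neurons the same lists had medians of the opposite sign for Susceptible minus Resilient, at 0.09, 0.10 and 0.21, with all D2 libraries included. Tested directly, the D1 contrast differed from the D2 contrast for 0 of 19368 genes by edgeR (2404, or 12.4%, at an unadjusted p under 0.05, 4.35% higher and 8.06% lower in D1). Lower in D1 at that threshold were 16 of 35 complex I genes, 18 of 39 of complexes II to V and 41 of 75 ribosomal protein genes. They were 15, 15 and 39 without Susceptible replicate 1, where 7.58% of all genes were lower and 3.67% higher. Some D2 libraries stood apart as well. D2 Susceptible replicates 1 and 2 had 15822 and 16525 genes detected and 11.1% and 10.4% of reads outside genes. D2 Resilient replicate 5 had markers of both classes. Without these 3 and D1 Susceptible replicate 1, the lower genes numbered 9, 8 and 8 in the same lists. Over all genes 429 (2.11%) were then lower and 546 (2.68%) higher, so that lower genes no longer outnumbered higher ones. By voom they were 11, 11 and 21, with 712 lower and 655 higher over all genes. For Atp5k the difference of the contrasts was -1.01 (SE 0.232, edgeR adjusted p 0.192), and for Rps29 -0.90 (SE 0.229, edgeR adjusted p 0.213). No gene named here is therefore shown to be particular to D1.

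**Figure D2:**
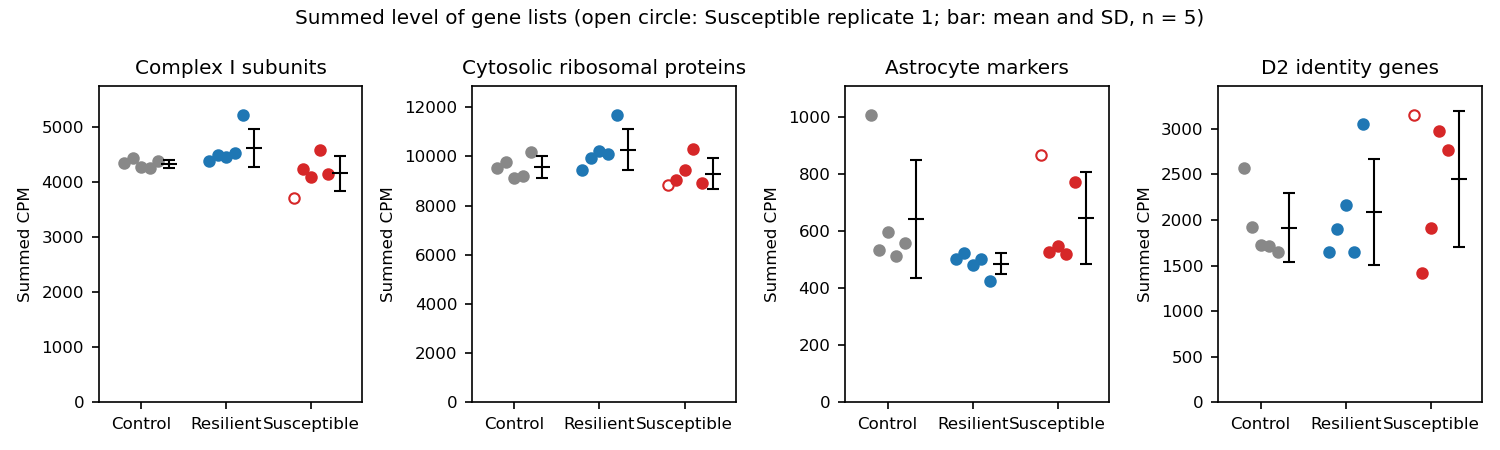
Summed CPM (vertical axes, from 0) of the tested genes of 4 lists in each D1 library; the open circle is Susceptible replicate 1, and bars give the mean and SD of 5 libraries. Complex I sums were 3712 to 4580 CPM in Susceptible and 4371 to 5219 CPM in Resilient libraries, and D2 identity sums overlap between the groups.

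Exon length moved with this contrast. Among protein-coding genes, those with at most 1750 bases of exon had a median log2 difference of -0.08, with 70 lower and 33 higher at an unadjusted p under 0.05, and those above 9854 bases had 0.08, with 1 lower and 143 higher. Without Susceptible replicate 1 the medians were -0.06 and 0.03. That library lay at -0.16 for the shortest class and 0.26 for the longest, as deviations from the mean of the 10 libraries. Resilient replicate 5 lay at 0.20 and -0.07, and Susceptible replicate 4 at 0.12 and -0.14. Among genes of at most 2782 bases, 174 genes of the respiratory chain, ribosome and proteasome lists had a median of -0.12 with 37 lower and 1 higher, and 3568 other genes had -0.06 with 76 lower and 69 higher. The 88 longer genes of those lists had a median of -0.08. The part of length in the results above was not tested.

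**Figure D3:**
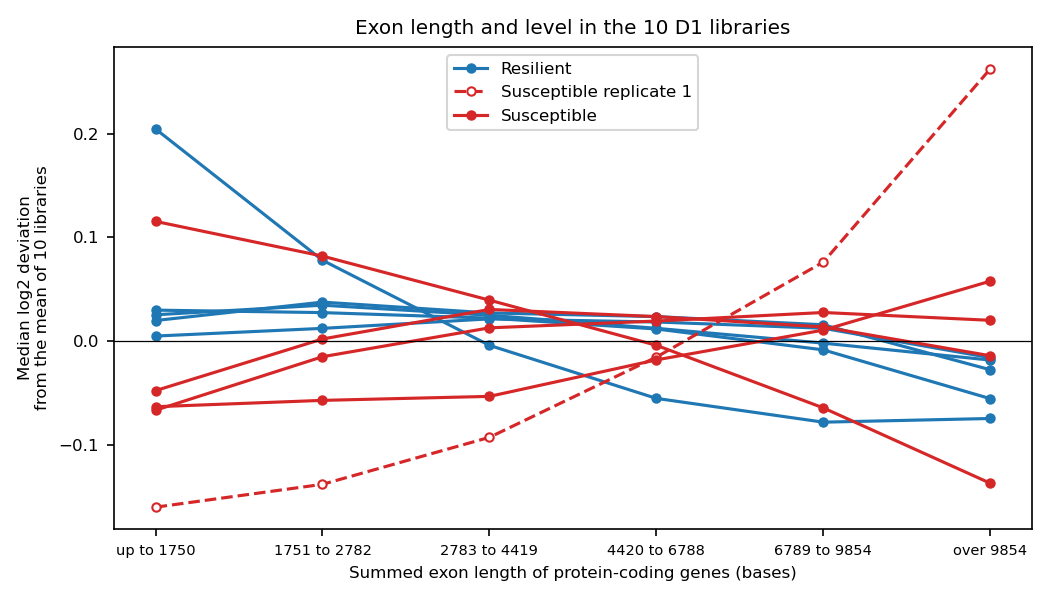
Median log2 deviation from the mean of the 10 libraries (vertical axis) of protein-coding genes in 6 classes of summed exon length in bases (horizontal axis), 1 line per library, with Susceptible replicate 1 dashed. Susceptible replicate 1 runs from -0.16 to 0.26, Resilient replicate 5 from 0.20 to -0.07 and Susceptible replicate 4 from 0.12 to -0.14, so both groups hold a library that tilts towards short genes.

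Other lower genes named by the rule were Pin4, a prolyl isomerase, Polr2i, a subunit of RNA polymerase II, Uxt, a prefoldin-like chaperone, and H2afz, a histone H2A variant. Pin4 had 25.6, 29.3, 33.7, 30.6 and 27.1 CPM in Susceptible and 40.8, 40.9, 41.2, 37.3 and 53.1 CPM in Resilient libraries, without overlap (log2 difference -0.54 (SE 0.151, edgeR unadjusted p 0.00113, adjusted p 0.671)). Polr2i differed by -0.44 (edgeR adjusted p 0.856), Uxt by -0.67 (edgeR adjusted p 0.856) and H2afz by -0.35 (edgeR adjusted p 0.856). Pin4, Polr2i, Uxt and H2afz differed by -0.50, -0.42, -0.59 and -0.32 without Susceptible replicate 1. Vamp2 (ENSMUSG00000020894, chromosome 11, 69088490 to 69092384), the vesicle SNARE that drives transmitter release, had 1131, 1173, 1227, 1308 and 1222 CPM in Susceptible and 1327, 1394, 1349, 1437 and 1343 CPM in Resilient libraries. The groups did not overlap, at a log2 difference of -0.18 (SE 0.0598, edgeR unadjusted p 0.00597, adjusted p 0.856) and -0.15 without Susceptible replicate 1. Of 37 synaptic vesicle genes, 1 was lower at an unadjusted p under 0.05 (Vamp2) and 3 were higher, or 1 and 0 without Susceptible replicate 1. Over all genes 1.28% were lower and 2.2% higher, or 0.912% and 0.972% without it. Pick1, which binds AMPA receptors, and Arpc3, a subunit of the actin-branching Arp2/3 complex, did not overlap either, with log2 differences of -0.29 and -0.23 (edgeR adjusted p 1 for both), or -0.31 and -0.19 without that library.

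Most genes of blood vessel cells had higher levels in Susceptible libraries, with none past the adjusted threshold in edgeR. Endothelial cells line the vessel and mural cells (pericytes and smooth muscle) wrap it; neither is the class this Cre driver is used for. Of 19 tested markers, 17 had a positive log2 difference, 11 were higher at an unadjusted p under 0.05 and 0 lower, with a median of 0.81. At that threshold 2.2% of all genes were higher and 1.28% lower. Without Susceptible replicate 1, 18 were positive and 9 higher (median 0.66), where 0.972% of all genes were higher. Leaving out 1 library at a time kept the count of higher genes at 9 to 11. Voom with quality weights, however, gave 1 higher and 1 lower (median 0.47), where 660 of all 19368 genes were higher and 886 lower. The levels were low, and a pull-down carries some RNA from neighbouring cells. More cells of a type, more RNA per cell and more carried-over RNA cannot be told apart here.

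Rgs5 (ENSMUSG00000026678, chromosome 1, 169655501 to 169695813), a pericyte regulator of G-protein signalling, had 16.4, 6.12, 8.71, 17.1 and 12.5 CPM in Susceptible and 6.49, 6.50, 6.06, 4.92 and 7.54 CPM in Resilient libraries. Susceptible replicate 2 alone lay within the Resilient range, and the log2 difference was 0.93 (SE 0.242, edgeR unadjusted p 0.000634, adjusted p 0.619), or 0.82 without Susceptible replicate 1. Vtn (ENSMUSG00000017344, chromosome 11, 78499091 to 78502324), vitronectin, which pericytes make, had 6.09, 1.33, 2.40, 12.2 and 9.44 CPM in Susceptible and 1.86, 1.49, 1.74, 1.74 and 2.05 CPM in Resilient libraries. Susceptible replicates 1, 4 and 5 were the high ones, while replicate 2 lay below all Resilient libraries (log2 difference 1.82 (SE 0.507, edgeR unadjusted p 0.00138, adjusted p 0.671), and 1.83 without replicate 1). Those 3 are also the Susceptible libraries with the highest D2 identity sums, whose part in the result was not tested. In D2 libraries Vtn stood at 59.5 ± 22.8 CPM in Susceptible and 78.2 ± 26.7 CPM in Resilient, against 1.33 to 12.2 CPM across the 15 D1 libraries. For the whole list the D2 median was 0.08, and the difference between the D1 and D2 contrasts was higher in D1 at an unadjusted p under 0.05 for 7 of 19 genes, where 4.35% of all genes were. Without the 4 libraries that stood apart it was higher for 6, where 2.68% of all genes were. By voom it was higher for 1 and lower for 1, where 3.38% and 3.68% of all genes were.

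Adgrl4 (ENSMUSG00000039167, chromosome 3, 151437887 to 151545086), an endothelial adhesion receptor, had 4.87, 1.41, 0.895, 2.16 and 1.58 CPM in Susceptible and 0.806, 1.03, 0.662, 0.762 and 0.222 CPM in Resilient libraries. Only Susceptible replicate 3 fell within the Resilient range. Its log2 difference of 1.54 (SE 0.347, edgeR unadjusted p 0.000105, adjusted p 0.254) was 1.12 without Susceptible replicate 1 (edgeR unadjusted p 0.000891, adjusted p 1). DESeq2 called it with all libraries. Abcb1a, the P-glycoprotein drug pump of the blood-brain barrier, had 7.41, 0.760, 0.644, 3.65 and 1.87 CPM in Susceptible and 0.425 to 1.02 CPM in Resilient libraries. Susceptible replicates 2 and 3 overlapped with Resilient (log2 difference 1.88 (SE 0.461, edgeR unadjusted p 0.000323, adjusted p 0.481), and 1.28 without replicate 1). Igfbp7, a vessel matrix protein, differed by 1.52 (edgeR adjusted p 0.671; 1.58 without replicate 1), with the highest value, 4.39 CPM, in Susceptible replicate 4. The pericyte channel subunits Abcc9 and Kcnj8, which together form a potassium channel, differed by 2.29 and 2.01 (edgeR adjusted p 0.557 and 0.619), or by 1.35 and 1.77 without Susceptible replicate 1. Abcc9 stood at 3.75, 0.361, 0.340, 1.09 and 0.257 CPM in Susceptible replicates 1 to 5 and 0.112 to 0.314 CPM in Resilient libraries, with replicate 1 far above the rest. Kcnj8 had 1.22, 0.209, 0.286, 1.03 and 0.513 CPM in Susceptible and 0 to 0.259 CPM in Resilient libraries. In the Resilient libraries 3 counts correspond to 0.0566 to 0.0652 CPM of the unscaled total.

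Bsg, an abundant membrane protein that is not limited to vessels, went the other way (log2 difference -0.17) and made up most of the summed level of the endothelial and mural list. With Bsg, the list summed to 429.9, 433, 412, 525 and 437 CPM in Susceptible and 454, 449, 466, 459 and 479 CPM in Resilient libraries, so that 4 of 5 Susceptible libraries lay below all Resilient ones. Without Bsg, a choice made after its level was seen, the 18 other genes summed to 106, 55.1, 52.4, 106 and 79.8 CPM in Susceptible replicates 1 to 5. In Resilient replicates 1 to 5 they summed to 50.7, 48.9, 46.4, 43.6 and 46.8 CPM, below all Susceptible libraries. Controls had 50.2 to 93.8 CPM, with replicate 1 the highest.

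Markers of glia leaned the same way with fewer genes at the threshold. Of 15 astrocyte markers, 15 were positive and 3 higher at an unadjusted p under 0.05 (median 0.46), and without Susceptible replicate 1 just 1 was (median 0.32). Over all genes 2.2% were higher, or 0.972% without that library. Gfap, the astrocyte filament protein, had 7.81, 3.67, 3.36, 5.86 and 6.25 CPM in Susceptible and 2.08, 2.61, 2.58, 2.59 and 2.40 CPM in Resilient libraries, with no overlap (log2 difference 1.11 (SE 0.399, edgeR unadjusted p 0.00949, adjusted p 0.99), and 0.96 without replicate 1). Summed, astrocyte markers stood at 867, 529, 548, 522 and 773 CPM in Susceptible and 503, 524, 482, 502 and 425 CPM in Resilient libraries, with Susceptible replicates 1 and 5 apart from the rest. Without both of these libraries, a setting added after their ribosomal RNA shares were seen, the median was 0.15 and 0 astrocyte markers remained at the threshold. Microglial markers had a median of 0.43 (15 tested, 2 higher) and oligodendrocyte markers 0.33 (17 tested, 1 higher). With Susceptible replicate 1 left out, 0 of either list had an unadjusted p under 0.05. C1qb, a complement gene of microglia, had 2.94, 1.23, 1.97, 3.15 and 3.70 CPM in Susceptible and 0.993, 1.14, 1.18, 1.65 and 1.02 CPM in Resilient libraries (log2 difference 1.11, edgeR adjusted p 1, and 1.07 without replicate 1).

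Against Controls the glial medians were -0.18 (astrocyte), -0.26 (microglia) and -0.26 (oligodendrocyte) in Susceptible and -0.53, -0.54 and -0.54 in Resilient. In Resilient 6, 5 and 8 genes were lower at an unadjusted p under 0.05, where 1.51% of all genes were. Control replicate 1 was high in these lists, with an astrocyte sum of 1009 CPM against 513 to 599 CPM in the other 4 Controls.

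Extracellular matrix genes had 9 of 37 higher and 1 lower (median 0.23), and 3 higher without Susceptible replicate 1 (median 0.17). Over all genes 2.2% were higher and 1.28% lower, and 0.972% were higher without that library. Sparc, a matrix glycoprotein of vessels and glia, had 24.6, 11.07, 10.97, 21.98 and 22.6 CPM in Susceptible and 9.09, 6.83, 8.72, 7.93 and 12.04 CPM in Resilient libraries (log2 difference 1.02 (SE 0.336, edgeR unadjusted p 0.00549, adjusted p 0.856), and 0.90 without replicate 1). Lamc1 (ENSMUSG00000026478, chromosome 1, 153218922 to 153332786), a laminin chain of basement membranes, had 21.7, 16.2, 16.2, 18.3 and 19.5 CPM in Susceptible and 14.2, 14.5, 13.7, 13.2 and 12.7 CPM in Resilient libraries. These groups did not overlap, and the log2 difference was 0.42 (SE 0.144, edgeR unadjusted p 0.00631, adjusted p 0.856), or 0.36 without that library. Urb2, which takes part in ribosome assembly, did not overlap either, at 26.9, 22.5, 21.8, 23.0 and 25.9 CPM in Susceptible and 17.4, 20.8, 17.3, 19.6 and 18.8 CPM in Resilient libraries (log2 difference 0.35 (SE 0.0981, edgeR unadjusted p 0.00115, adjusted p 0.671), and 0.31 without it).

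**Figure D4:**
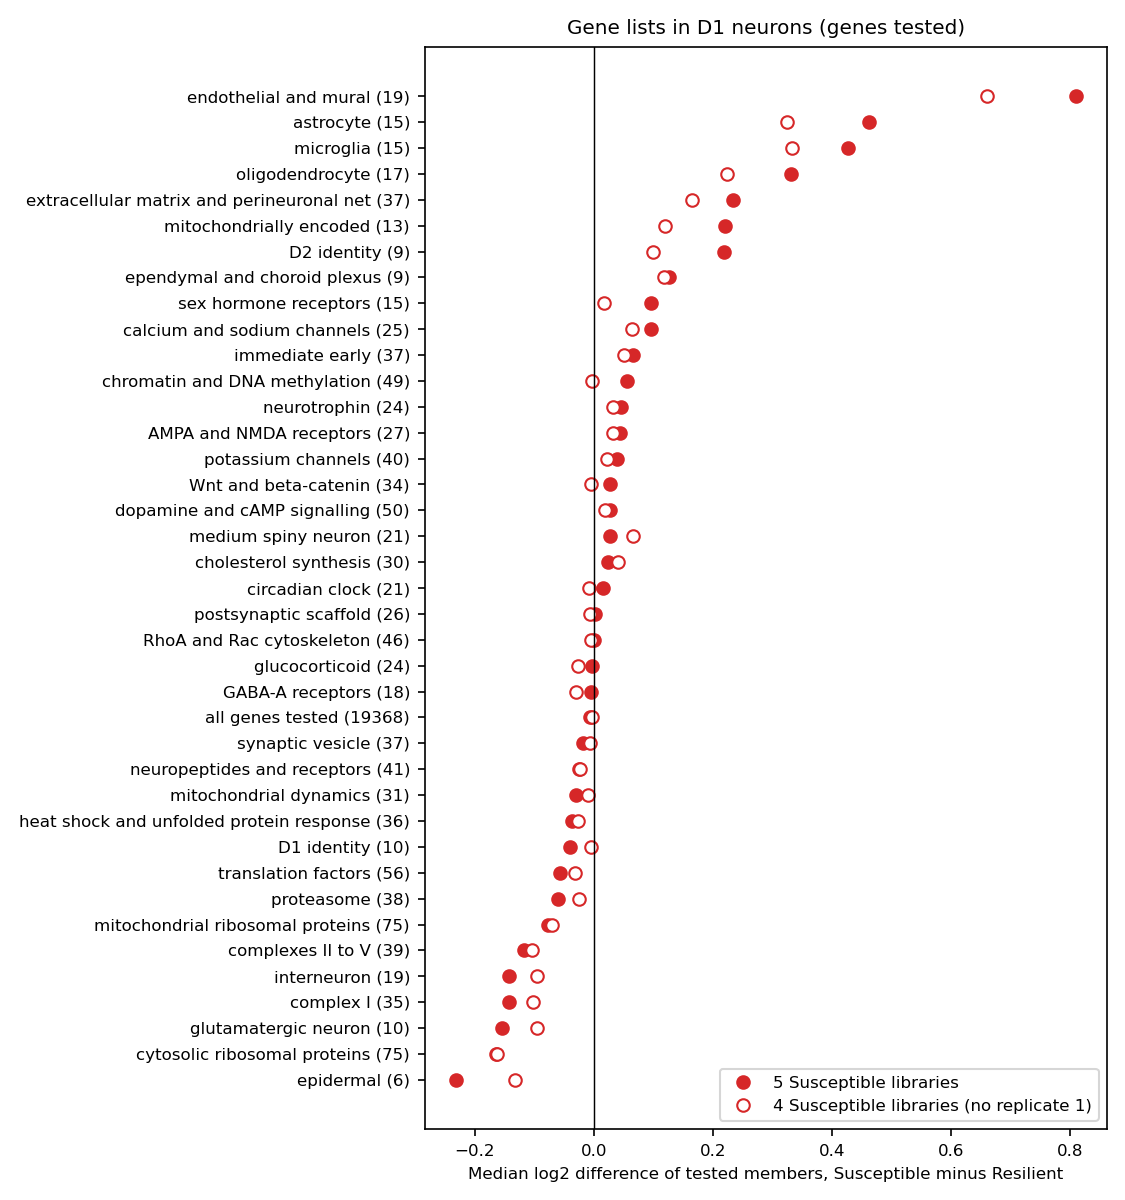
Median log2 difference, Susceptible minus Resilient (horizontal axis), of the tested genes of 38 lists and of all genes tested (number in brackets); filled circles use 5 Susceptible libraries and open circles leave out replicate 1, and ribosomal RNA features (median 5.87 and 1.84) are off the plot. Endothelial and mural markers lie highest, at 0.81 and 0.66, and the cytosolic ribosomal proteins are among the lowest lists, at -0.16 in both.

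Several of the genes with the smallest p-values owed their size to Susceptible replicate 1. Lars2 had 181829, 571, 408, 458 and 3569 CPM in Susceptible replicates 1 to 5 and 381, 334, 301, 266 and 354 CPM in Resilient replicates 1 to 5. The Susceptible libraries were higher without overlap, and the log2 difference moved from 6.83 to 1.94 without replicate 1 (edgeR adjusted p 0.243 with it). Lars2 encodes a mitochondrial leucyl-tRNA synthetase, and it was counted here with the ribosomal RNA features, along with Gm23935 and Gm15564. Of 8 such features tested, 8 were higher at an unadjusted p under 0.05 (median 5.87), and 5 without that library (median 1.84). Rn7sk, a small nuclear RNA, had 1083, 2.30, 2.15, 1.75 and 27.8 CPM in Susceptible libraries and 1.31 to 4.32 CPM in Resilient ones. It differed by 6.42, by 1.72 without Susceptible replicate 1 and by -0.32 without replicates 1 and 5.

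Other named genes also differed less without Susceptible replicate 1. Lrrc7, a postsynaptic scaffold protein, had 183, 57.5, 55.1, 48.8 and 75.1 CPM in Susceptible and 57.4, 49.4, 44.5, 46.2 and 43.6 CPM in Resilient libraries. Its log2 difference of 0.78 (SE 0.217, edgeR unadjusted p 0.00115, adjusted p 0.671) was 0.29 without Susceptible replicate 1. Csmd1, a complement-regulating membrane protein, moved from 0.68 to 0.30, and Pclo, a presynaptic scaffold, from 0.39 to 0.09. Cacna1a, the pore of P/Q-type calcium channels, moved from 0.36 to 0.16. Pde10a, the main cyclic nucleotide phosphodiesterase of these neurons, moved from 0.35 to 0.21. Dgki, a diacylglycerol kinase, had 60.4, 14.7, 13.4, 12.2 and 47.6 CPM in Susceptible libraries and 11.9 to 14.6 CPM in Resilient ones, so that replicates 1 and 5 carried its log2 difference of 1.16 (SE 0.323, edgeR unadjusted p 0.00124, adjusted p 0.671), which was 0.75 without replicate 1.

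**Figure D5:**
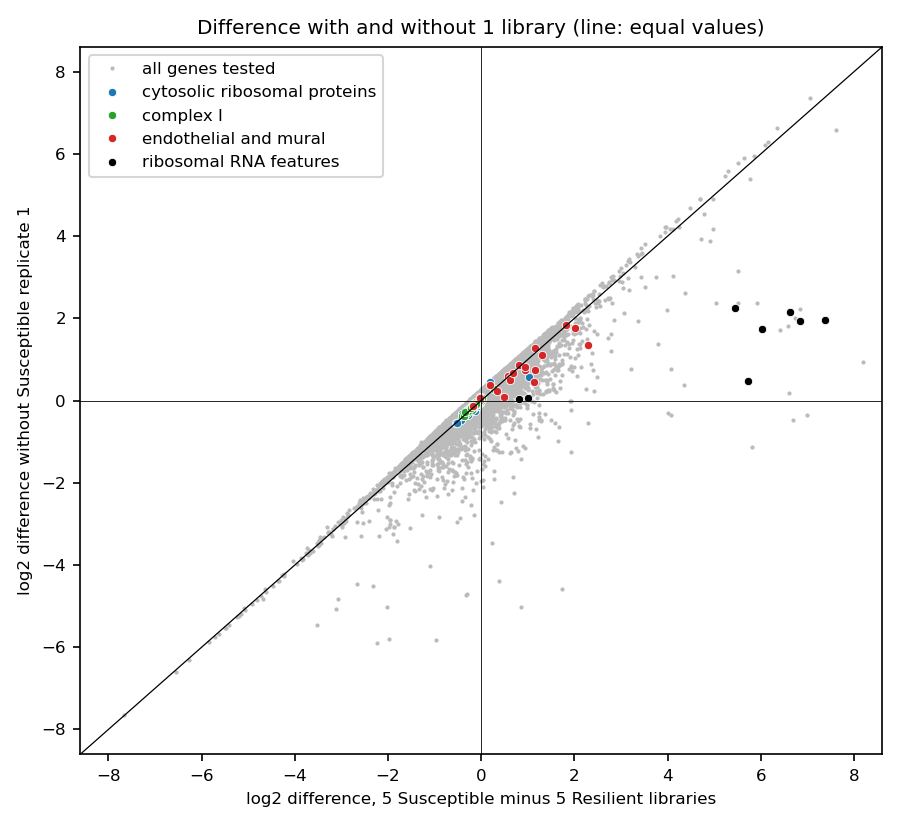
Log2 difference of each gene tested in both fits with 5 Susceptible libraries (horizontal axis) and without replicate 1 (vertical axis); the diagonal marks equal values. Most ribosomal RNA features fall far under the diagonal, while complex I and ribosomal protein genes lie close to it near 0. Most endothelial and mural markers lie above 0, along or under the diagonal.

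Some large differences came from 1 to 3 libraries. Srsf1, a splicing factor, stood at 68.9 CPM in Susceptible replicate 3 and at 1.62 to 2.89 CPM in the other 9 libraries. Its log2 difference of 2.58 (SE 0.681, edgeR unadjusted p 0.000752, adjusted p 0.662) turned to -0.18 without that replicate. Slc30a1, a zinc exporter, had 52.5 and 33.3 CPM in Resilient replicates 3 and 4 and 0.557 to 1.33 CPM in Susceptible libraries (log2 difference -4.23 (SE 1.24, edgeR unadjusted p 0.0022, adjusted p 0.784)). Jund, an AP-1 subunit, had 152 CPM in Resilient replicate 2, 12.7 CPM in replicate 4 and 2.48 to 5.17 CPM elsewhere in the 10 libraries. Spp1, osteopontin, was lower in Susceptible by -1.20 (edgeR adjusted p 0.856), with 4.91 and 5.01 CPM in Resilient replicates 2 and 5 and 0.684 to 1.61 CPM in Susceptible libraries. Ttr, the transthyretin of the choroid plexus, had 0.812, 12.6, 2.85, 36.5 and 2.99 CPM in Susceptible and 0.271 to 1.24 CPM in Resilient libraries. Mrps23 stood at 14.1 CPM in Susceptible replicate 1 and under 1 CPM in the other 9. Gm14308 had 4.46, 4.31, 0.0358, 0.0619 and 5.21 CPM in Susceptible replicates 1 to 5 and 0.0193 to 0.227 CPM in Resilient libraries, a pattern of 3 high libraries (log2 difference 4.77 (SE 1.16, edgeR unadjusted p 0.000263, adjusted p 0.425)).

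For the genes that define D1 neurons no difference was detected. The 10 D1 identity genes had a median of -0.04, with 0 at an unadjusted p under 0.05 in either direction. Without Susceptible replicate 1 the median was -0.004, again with 0 in either direction. The fit takes the spread from all 30 libraries, among them D2 Resilient replicate 5, with 414 CPM of Drd1 and markers of both classes. The part of that library in these p-values was not tested, and a difference in class markers may have gone undetected. Drd1 had 412, 616, 594, 469.5 and 377 CPM in Susceptible and 573, 469.5, 455, 548 and 461 CPM in Resilient libraries, which overlapped (log2 difference -0.02 (SE 0.430, edgeR unadjusted p 0.959, adjusted p 1)). Pdyn, which encodes dynorphin, and Tac1, the precursor of substance P, differed by -0.09 and -0.17. Of 21 medium spiny neuron genes 1 was higher, and of 9 D2 identity genes 0 were (median 0.22), where 2.2% of all genes were. Without Susceptible replicate 1 each list had 0 higher, with a D2 identity median of 0.10, where 0.972% of all genes were higher. Drd2 and Adora2a differed by 0.40 and 0.43 (edgeR adjusted p 1 for both), or 0.27 and 0.31 without Susceptible replicate 1. Rpl22, the tagged ribosomal protein, differed by -0.09. Xist, which marks the inactive X chromosome of females, had 50.2, 12.5, 14.2, 11.5 and 33.5 CPM in Susceptible and 13.8, 14.2, 15.1, 10.98 and 25.5 CPM in Resilient libraries (log2 difference 0.58, edgeR adjusted p 1).

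Activity-induced genes, which neurons switch on within minutes of firing, were compared between the stressed groups. Of 37 tested, 0 were higher at the threshold and 1, Jund, lower (median 0.07), where 2.2% of all genes were higher and 1.28% lower. Without Susceptible replicate 1 the counts were 0 higher and 1 lower (median 0.05), where 0.972% and 0.912% of all genes were. Arc, a regulator of synaptic strength, had 51.2, 33.0, 35.4, 55.4 and 51.6 CPM in Susceptible and 33.0, 45.3, 33.0, 44.8 and 26.4 CPM in Resilient libraries, with Controls at 51.3, 79.1, 52.4, 61.4 and 88.1 CPM. Susceptible and Resilient libraries overlapped, and Susceptible minus Resilient was 0.31 (SE 0.277, edgeR unadjusted p 0.274, adjusted p 1). Fos had 8.71 to 15.3 CPM in Susceptible, 8.51 to 13.5 CPM in Resilient and 10.2 to 31.0 CPM in Control libraries, at a difference of 0.05 between the stressed groups. Egr1, Egr3, Fosb, Npas4, Nr4a1 and Bdnf differed between them by 0.08, 0.10, 0.09, 0.20, 0.17 and 0.05. The list's median was -0.28 against Control in Susceptible (0 higher, 8 lower) and -0.33 in Resilient (1 higher, 12 lower). Over all genes 1.41% were higher and 0.991% lower in Susceptible, and 1.08% higher and 1.51% lower in Resilient.

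Glucocorticoid-responsive genes had 0 of 24 at the threshold (median 0.00), and again 0 without Susceptible replicate 1 (median -0.03). Fkbp5, a chaperone that glucocorticoids induce, had 57.7, 60.8, 64.6, 65.5 and 68.9 CPM in Susceptible and 65.6, 69.0, 61.8, 69.4 and 59.0 CPM in Resilient libraries, with Controls at 51.7 to 60.7 CPM (Susceptible minus Resilient -0.03 (SE 0.0773, edgeR unadjusted p 0.688, adjusted p 1)). Sgk1 and Nr3c1, the glucocorticoid receptor, differed by 0.21 and -0.05. Crhr1, the receptor for corticotropin-releasing hormone, had 5.68, 4.08, 4.04, 7.30 and 7.65 CPM in Susceptible and 3.62, 5.71, 3.74, 4.35 and 4.30 CPM in Resilient libraries. Susceptible replicates 4 and 5 were above every Resilient library, and the log2 difference was 0.40 (SE 0.207, edgeR unadjusted p 0.0596, adjusted p 1).

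Some genes of neuronal signalling lists were at the threshold. Dopamine and cAMP genes had 2 of 50 higher, calcium and sodium channels 3 of 25, potassium channels 3 of 40, and neuropeptides and their receptors 3 of 41, with 0 lower in each, where 2.2% of all genes were higher. With Susceptible replicate 1 left out, each of these 4 lists had 0, where 0.972% of all genes were higher. AMPA and NMDA receptor genes had 1 of 27 higher, or 0 without Susceptible replicate 1. In the RhoA and Rac list 2 of 46 were lower, and in the mitochondrial dynamics list 1 of 31, where 1.28% of all genes were lower. Without that library 1 and 0 were lower in these 2 lists, where 0.912% of all genes were. Sex hormone receptor genes had 0 of 15 in either direction (median 0.10), with Esr1, an oestrogen receptor, at 2.64, 2.64, 3.10, 1.55 and 2.26 CPM in Susceptible and 2.49, 2.01, 2.94, 1.81 and 2.12 CPM in Resilient libraries. Without Susceptible replicate 1 that list again had 0, with a median of 0.02. Ppp1r1b (DARPP-32), Ppargc1a, Dnm1l, Rhoa, Oprk1, Cartpt and Slc6a15 differed by 0.03, -0.11, 0.03, 0.04, -0.03, -0.15 and -0.04, each with an edgeR adjusted p of 1.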

How the data were processed

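The authors deposited raw read counts per gene, which per the submitters' processing notes come from HISAT2 and HTSeq on GRCm38 (mm10); their versions, the strand setting and the annotation release were not given in the sources used. Per the labels, 10 ng of RNA with an integrity number above 8 went into SMART-Seq v4 libraries. That kit does not mark strand, so a gene and an overlapping antisense gene cannot be told apart. Counts carry no molecular identifiers, so floors cover counting error only. Unassigned reads (10.1% to 53.3% in the 10 libraries) stayed out of all totals.

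Counts of 55335 genes were matched to GENCODE M21 (55154 had a symbol). EdgeR 4.0.16 fitted all 30 libraries in 1 model of 6 groups (TMM, minimum count 10 and total 15, quasi-likelihood F test, Benjamini-Hochberg over 19368 genes), because the labels give no test, and 35967 genes were set aside. CPM use TMM-scaled library sizes. Alternatives used DESeq2 1.42.0, limma 3.58.1 (voom) and sva 3.50.0 in R 4.3.3, and figures matplotlib 3.10.9. The edgeR fit was also run on simulated counts with less spread between libraries than these data, whose common dispersion was 0.172. That run does not show how many changes the fit would find here. No 2 replicates of a group matched within counting error (chi-square per degree of freedom 13.9 to 2710 over 20 pairs).

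The 10 libraries follow from their labels, but the choice of this comparison, the gene lists and the tests were made with earlier results of these data known. Genes were named by rule: any called by edgeR with or without Susceptible replicate 1, up to 12 per direction by smallest p (unadjusted p under 0.05 in the same direction without that library, mean of at least 1 CPM, a unique symbol that is no Gm, Rik, clone or pseudogene name), up to 15 called by other tools, fits or with 1 library left out, 8 label checks, 20 candidates, and up to 3 of smallest p per list. Genes named outside it were chosen after their values were seen.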

Additional observations from a re-analysis of the deposited data

Results flagged for a closer look

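Within each D1 group of 5 libraries, a library was listed when its gap to the nearest other library, divided by the range of the group, exceeded 0.71 (Dixon's 95% critical value). Chance lists about 1 in 20 groups, and 79 genes and 5 library measures were checked in this way. Many listed values belonged to Susceptible replicate 1. Its share of counts in ribosomal RNA features was 68.1% and its share of reads outside genes 41.2%. It was high for Lars2 (181829 CPM), Rn7sk (1083 CPM), Csmd1 (67.3 CPM), Lrrc7 (183 CPM), Gm42418 (1614380 CPM), CT010467.1 (483 CPM), Abcc9 (3.75 CPM), Gm23935 (181535 CPM), Pde10a (1019 CPM), Mrps23 (14.1 CPM), Gm15564 (17615 CPM) and Pclo (465 CPM), and low for Slirp (18.5 CPM) and Rpl22 (42.8 CPM). CPM are scaled to TMM library sizes, and the TMM factor of this library was 0.340.

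Control replicate 1 stood above the other Controls for Lars2 (1427 CPM), Rn7sk (16.1 CPM), Rgs5 (13.5 CPM), Dgki (24.1 CPM), Vtn (11.2 CPM), Gm42418 (23219 CPM), CT010467.1 (21.2 CPM), Gm23935 (1023 CPM), Penk (1811 CPM), Xist (55.5 CPM), Gfap (13.0 CPM), Sparc (39.6 CPM), C1qb (7.32 CPM) and Gm15564 (198 CPM). Resilient replicate 5 stood above the other Resilient libraries for Pin4 (53.1 CPM), Polr2i (24.5 CPM), Ndufa3 (101 CPM), Xist (25.5 CPM) and Cox5b (305 CPM). Susceptible replicate 3 stood out for Srsf1 (68.9 CPM). Susceptible replicate 4 stood out for Igfbp7 (4.39 CPM). Control replicate 2 stood out for Gm6180 (24.9 CPM). Control replicate 5 stood out for Ttr (13.3 CPM). Resilient replicate 2 stood out for Jund (152 CPM). Resilient replicate 4 stood out for C1qb (1.65 CPM).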

How the results depend on the processing

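EdgeR called 0 genes in the comparison. Other counts came from DESeq2 (8), voom (14) and edgeR with 1 D1 library left out (0 to 9, with 9 without Susceptible replicate 3). Of the settings added after the data were seen, DESeq2 without Susceptible replicate 1 called 5 and voom without it 18. The 675 genes at an unadjusted p under 0.05 became 1730 with no filter on low counts, 1015 with only the groups compared, 1183 with only the 15 D1 libraries, 1546 by voom, 1128 with 1 surrogate variable, and 302 without Susceptible replicates 1 and 5, 414 by DESeq2 and 1669 by voom without Susceptible replicate 1. With 1 library left out they were 374 (without Susceptible replicate 1) to 882 (without Susceptible replicate 4). The difference between the D1 and D2 contrasts passed for 45 genes by DESeq2, 1 with 1 surrogate variable and 0 to 156 with 1 library left out (156 without D2 Susceptible replicate 3). The difference in ribosomal RNA share, 14.6 percentage points, ranged from 1.42 without Susceptible replicate 1 to 18.3 without Susceptible replicate 3, where the exact permutation p was 0.0397. The causes were not tested.

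Replicate numbers did not pair the libraries: same-numbered Susceptible and Resilient libraries had deviations from their group means correlated at -0.060 to 0.033, and 1 of 5 correlated best with its own number. A fit with the replicate number as a block called 0 genes, with 606 at an unadjusted p under 0.05, and 0 for the difference of the contrasts.

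Some log2 differences, most of them close to 0, changed sign under some settings, for which the cause was not tested. Without Susceptible 1 and 5 they were Rn7sk -0.32, Drd1 0.16, Pdyn 0.072, Penk -0.0036, Xist -0.32, Npas4 -0.14, Nr3c1 0.00059 and Oprk1 0.084. By voom without Susceptible 1 they were Rn7sk -0.0083, Drd1 0.17, Pdyn 0.081, Tac1 0.034, Drd2 -0.066, Adora2a -0.10, Penk -0.093, Rpl22 0.0063, Xist -0.026, Fos -0.081, Fosb -0.048, Arc -0.0062, Npas4 -0.18, Nr3c1 0.064, Oprk1 0.12 and Slc6a15 0.00012. By voom they were Drd1 0.11, Pdyn 0.012, Fos -0.053, Fosb -0.029, Npas4 -0.14, Nr3c1 0.062 and Oprk1 0.10. Without 4 libraries that stand apart they were Drd1 0.035, Rpl22 0.0019, Fos -0.0090 and Fosb -0.036. By DESeq2 without Susceptible 1 they were Drd1 0.042, Rpl22 0.012, Fos -2.8e-05, Fosb -0.028 and Fkbp5 0.0097. With only the 2 groups without Susceptible 1 they were Drd1 0.043, Rpl22 0.011, Fos -0.00098, Fosb -0.027 and Fkbp5 0.0092. The 4 libraries are D1 Susceptible 1, D2 Susceptible 1 and 2 and D2 Resilient 5. The settings without Susceptible 1 and 5, and those of DESeq2, voom or only the 2 groups without Susceptible 1, were added after the data were seen. With 1 D1 library left out the ranges that crossed 0 were Srsf1 -0.18 to 2.86, Drd1 -0.11 to 0.059, Rpl22 -0.12 to 0.0011, Fos -0.078 to 0.14, Fosb -0.037 to 0.18, Egr1 -0.016 to 0.14, Bdnf -0.033 to 0.16, Nr3c1 -0.13 to 0.012, Dnm1l -0.0025 to 0.061, Ppp1r1b -0.052 to 0.072, Oprk1 -0.098 to 0.047 and Esr1 -0.0094 to 0.22. Median log2 differences of the 39 lists moved by less than the spread between replicates in 920 of 934 list and setting pairs.

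Counting error limits low genes: 3 counts correspond to 0.0556 to 0.103 CPM of the unscaled total in Susceptible and 0.0566 to 0.0652 CPM in Resilient libraries. The levels given above use TMM-scaled sizes instead. Susceptible replicate 1 had a TMM factor of 0.340, so its floor on that scale is higher than the range given.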
